A study of Mus musculus with 12 samples.

Results

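The 38 immediate early and dissociation response genes described here were chosen by name from a list of rapidly induced transcription factors, their feedback inhibitors and a few stress-induced effectors. All 38 had at least 1 Affymetrix probe set annotated to their symbol alone, 71 probe sets in total, among 18193 genes measured in the same way. They were compared over 12 arrays of neonatal mouse dermis (strain C57Bl6/CBA F1, no transgene or treatment given for any group), 3 in each of 4 groups labelled by age and skin site (P1 Tail and P1 Back, then P5 Tail with P5 Back), where P1 and P5 stand for days 1 and 5 after birth. For P1 the study's methods describe EDTA for tail skin and dispase-trypsin for back skin, both incubated warm before the epidermis was peeled off, then a digest of the dermis to single cells and lysis, with RNA from triplicate mice. How the P5 skin was handled is not given in the sources used here, so each P5 array was likewise taken as 1 mouse. Skin site and separating solution went together at P1 and cannot be told apart.

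Immediate early genes are switched on by signals that reach factors already present in the cell, so their transcripts appear without new protein synthesis and soon decline. Mitogens, wounding, stretch and the enzymes and warmth used to free cells from tissue all induce them, mainly through MAP kinases acting on serum response factor and through the cyclic AMP response element binding protein CREB. Many of them encode transcription factors (Fos, Jun, Egr, Nr4a), while others encode phosphatases and RNA-binding proteins that shut the same signals off. In skin they are known both from wound edges and from dissociated cells.

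Each deposited value is a log2 expression value relative to the median of its probe set over the 12 arrays, called the log2 value below. Differences between arrays can be read from it and levels cannot, so whether a gene or a cell type marker was expressed at all could not be checked. The array medians lay between -0.0233 and 0.014 and the SD over probe sets between 0.227 and 0.495, with P5 Tail 2 at 0.495 and every other array at or below 0.338. The direction of the site comparison is that of the labels, and 2 sets of markers go against it. Posterior Hox genes, which mark caudal positions in the body, were lower in the arrays labelled tail: 10 of 14 were lower and 0 higher at P1 (median log2 difference -1.27), and 10 of 14 lower and 0 higher at P5 (median -1.14). For Hoxd11 the log2 difference was -3.09 ± 0.17 (SE) at P1 and -3.28 ± 0.17 at P5. Adipocyte markers were higher in the arrays labelled tail, for 8 of 8 genes at P1 (median 2.68) and for 2 of 8 with 0 lower at P5 (median 0.55), and Adipoq differed by 5.23 ± 0.28 at P1. Back skin is the site with the thick dermal fat layer, and the direction of the adipocyte markers is opposite to the one the study gives for fat metabolism genes. The groups were not exchanged, so tail and back below mean the arrays labelled so, and every direction between sites rests on those labels. Comparisons of P5 with P1 within a labelled site do not depend on which site is which, but would depend on a site label that differed between ages, and the called genes of both sets ran the same way at both ages.

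As a group the members were highest in P1 Back and lowest in P5 Back, with both tail groups between. The mean log2 value over the 38 genes was 0.42, 0.56 and 0.48 on the P1 Back arrays, -0.51, -0.30 and -0.28 on P5 Back, -0.03, 0.13 and -0.34 on P1 Tail, and 0.25, 0.18 and -0.13 on P5 Tail. Group means ran from highest in P1 Back to lowest in P5 Back for 23 of the 38 members, against 5.39% of all genes. For 15 members the 3 P1 Back arrays lay above the other 9 arrays, against 2.41% of all genes, and for 7 members the 3 P5 Back arrays lay below the other 9, against 1.78%. The first set held Fos, Fosb, Fosl1, Jun, Atf3, Nr4a1, Nr4a2, Nr4a3, Btg2, Gadd45b, Zfp36, Dusp1, Dusp5, Nfkbia and Hbegf. The second set held Jun, Atf3, Egr1, Klf6, Dusp1, Nfkbiz and Rhob. The pattern was not shared by every member: Egr2 and Sgk1 were high in P5 Tail alone, and Dusp2, Dusp6, Egr3, Klf2, Myc and Ptgs2 followed other orders.

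**Figure D1:**
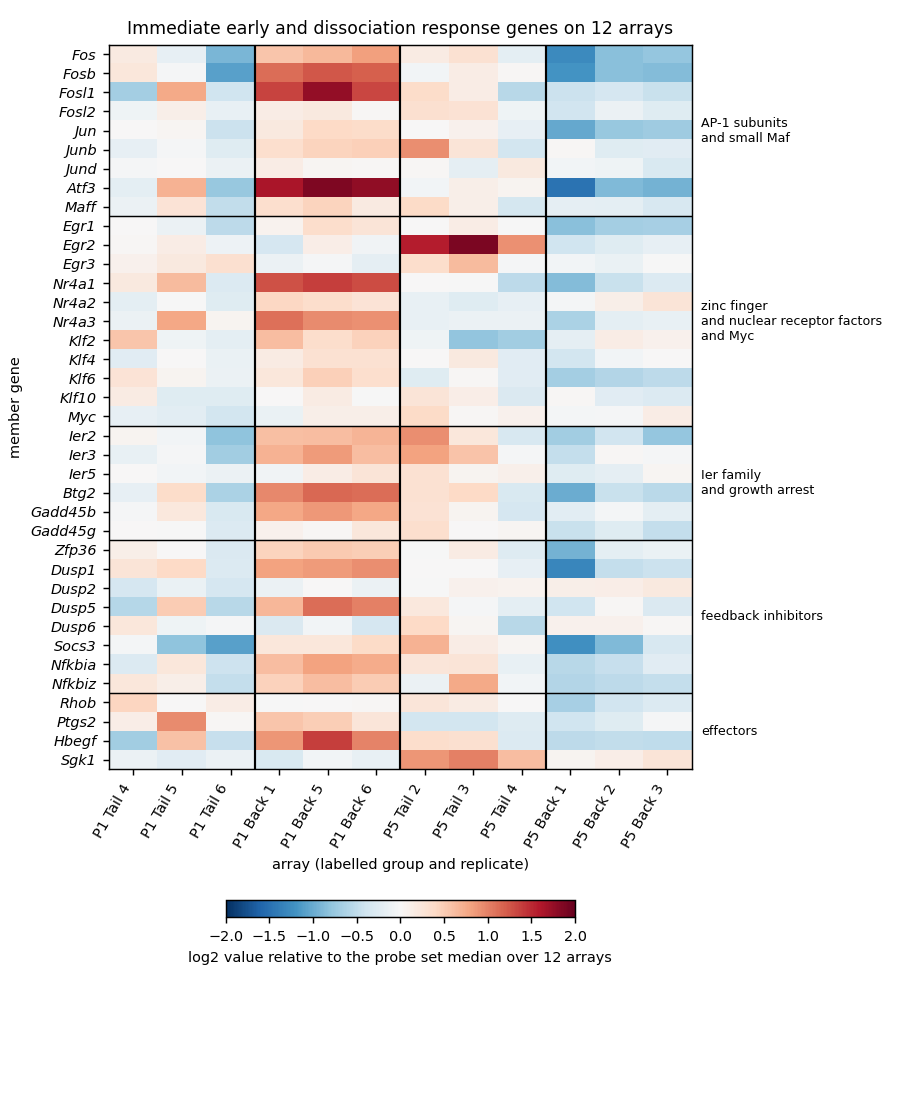
Log2 value of the 38 members (rows, grouped by role) on the 12 arrays (columns, by labelled group and replicate), relative to the median of each probe set over the arrays and averaged over a gene's probe sets. Most rows are highest in the P1 Back columns and lowest in the P5 Back columns, with Egr2 and Sgk1 highest in P5 Tail.

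Arrays of 1 group also differed from each other across many members at once. P1 Tail 6 was the lowest of the P1 Tail arrays for 29 of 38 members (32.4% of all genes), P5 Back 1 was the lowest of P5 Back for 29 (34.8% of all genes), P5 Tail 4 was the lowest of P5 Tail for 25 (29.6% of all genes), and P1 Back 1 was the lowest of P1 Back for 24 (37.5% of all genes). The SD of the 3 arrays ran over the 38 members from 0.01 to 0.26 in P1 Back (median 0.10), 0.05 to 0.76 in P1 Tail (median 0.27), 0.02 to 0.64 in P5 Tail (median 0.22) and 0.02 to 0.49 in P5 Back (median 0.16). Fewer cells of a responding type and less RNA per cell cannot be told apart in such bulk samples.

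Promoters are shown early because CREB and serum response factor are the textbook routes to these genes. Of the 15 members whose 3 P1 Back arrays lay above all others, 13 had a window, of which 9 held the CREB core TGACG and 4 (Jun, Gadd45b, Zfp36 and Nfkbia) did not. Over all members 17 of the 30 with a window held it, as did 20.8% of all windows. Whether the motif went with the P1 Back values was not tested. Shown are 5 picked from those 9, Jun from those without it, and Egr2, which followed a different order. RefSeq start sites on GRCm38.p6 gave 300-base windows, from 250 bases before to 50 after a start, for 30 of the 38 members (41 windows). Fosl1, Egr1, Egr3, Klf10, Myc, Ier2, Nfkbiz and Hbegf had no window. Each sequence below is in the direction of its gene, 5′ to 3′. Capitals mark TGACG or its reverse complement, the core of a cyclic AMP response element (CRE), and also TATAAA in Fos and the CArG box, the site of serum response factor, in Egr2. Dusp1 and Btg2 each hold a full CRE, TGACGTCA, and Jun has no capitals. The windows lie at chr12:85473640-85473939 (+) for Fos, chr1:191183284-191183583 (-) for Atf3, chr15:101266596-101266895 (+) for Nr4a1, chr1:134079106-134079405 (-) for Btg2, chr17:26508423-26508722 (-) for Dusp1, chr4:95052173-95052472 (-) for Jun and chr10:67537619-67537918 (+) for Egr2. The Egr2 window is the first of its 5 windows to hold both marked motifs.
Fos: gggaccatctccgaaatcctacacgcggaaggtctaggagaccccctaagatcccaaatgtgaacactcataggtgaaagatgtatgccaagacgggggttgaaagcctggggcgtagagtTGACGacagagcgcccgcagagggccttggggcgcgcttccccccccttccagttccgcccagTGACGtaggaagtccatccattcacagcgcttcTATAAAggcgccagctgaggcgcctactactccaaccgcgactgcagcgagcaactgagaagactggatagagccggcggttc
Atf3: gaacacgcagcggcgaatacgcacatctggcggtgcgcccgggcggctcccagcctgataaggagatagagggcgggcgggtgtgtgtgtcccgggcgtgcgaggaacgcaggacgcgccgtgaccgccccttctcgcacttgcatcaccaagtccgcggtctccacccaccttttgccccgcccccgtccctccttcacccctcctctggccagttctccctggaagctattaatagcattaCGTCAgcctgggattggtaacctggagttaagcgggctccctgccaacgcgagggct
Nr4a1: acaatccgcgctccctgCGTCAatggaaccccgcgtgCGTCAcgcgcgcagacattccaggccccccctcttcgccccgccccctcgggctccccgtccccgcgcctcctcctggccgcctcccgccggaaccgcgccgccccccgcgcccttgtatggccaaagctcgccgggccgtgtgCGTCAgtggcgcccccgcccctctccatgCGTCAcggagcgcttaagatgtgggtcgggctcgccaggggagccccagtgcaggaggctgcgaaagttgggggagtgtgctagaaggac
Btg2: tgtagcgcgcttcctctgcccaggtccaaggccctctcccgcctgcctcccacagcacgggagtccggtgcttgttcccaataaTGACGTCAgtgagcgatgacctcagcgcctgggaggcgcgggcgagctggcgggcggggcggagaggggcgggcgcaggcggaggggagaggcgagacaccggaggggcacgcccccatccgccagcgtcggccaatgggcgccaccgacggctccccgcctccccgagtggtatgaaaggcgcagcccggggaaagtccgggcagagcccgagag
Dusp1: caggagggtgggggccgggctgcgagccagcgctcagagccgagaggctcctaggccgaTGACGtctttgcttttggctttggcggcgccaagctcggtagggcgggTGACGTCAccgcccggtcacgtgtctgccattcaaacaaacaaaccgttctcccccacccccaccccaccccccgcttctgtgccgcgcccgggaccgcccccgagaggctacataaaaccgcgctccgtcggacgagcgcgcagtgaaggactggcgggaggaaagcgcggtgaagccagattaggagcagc
Jun: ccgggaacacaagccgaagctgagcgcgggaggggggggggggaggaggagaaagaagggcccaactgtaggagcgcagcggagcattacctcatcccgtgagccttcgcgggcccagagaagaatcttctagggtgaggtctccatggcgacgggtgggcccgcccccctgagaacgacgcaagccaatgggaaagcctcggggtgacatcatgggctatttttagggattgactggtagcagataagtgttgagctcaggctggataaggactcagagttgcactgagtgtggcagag
Egr2: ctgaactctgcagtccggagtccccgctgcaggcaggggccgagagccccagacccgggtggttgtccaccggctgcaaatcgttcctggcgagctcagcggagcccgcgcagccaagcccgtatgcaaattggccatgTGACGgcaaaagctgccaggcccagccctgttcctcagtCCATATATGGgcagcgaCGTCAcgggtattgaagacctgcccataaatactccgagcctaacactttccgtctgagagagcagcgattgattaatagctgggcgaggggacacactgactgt

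The half-site TGACG, searched on both strands, occurred in 2 places in the Fos window, in 1 in Atf3, 4 in Nr4a1, 1 in Btg2, 2 in Dusp1, 0 in Jun and 2 in Egr2, with the full element, which holds the half-site once on each strand, counted as 1 place. Among the members, 17 of 30 had it in at least 1 window, 20 of 41 windows in all, and 20.8% of all 32851 windows did. The full element TGACGTCA, which contains the half-site, was in the windows of 3 members, Btg2, Dusp1 and Maff, and in 1.79% of all windows. CArG boxes were found in Dusp5, Egr2 and Zfp36 and in 1.63% of all windows, and TATAAA in 7 members (Fos, Gadd45b, Gadd45g, Junb, Nfkbia, Nr4a2 and Sgk1) and in 13.6%. The AP-1 letters TGANTCA were in 0 of the 41 windows and in 7.81% of all. Only these exact letters were searched, so close variants such as TGACATCA in the Jun window were not counted. A match here is a run of letters in a short window and was not weighed against base composition.

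Between labelled sites at P1, 12 of 38 members were lower in tail and 0 were higher, while 1.91% of all genes were lower and 2.06% higher (limma, adjusted p under 0.05). The members' median log2 difference was -0.47, against -0.04 for all genes. Atf3, a stress-induced bZIP factor, had the largest difference at -1.85 ± 0.28 (SE, 3.61-fold), followed by Fosl1, Fosb and Hbegf. At P5 the direction was the other way: 11 members were higher in tail and 0 lower, while 4.3% of all genes were higher and 2.61% lower, with a median of 0.43 against -0.02. Egr2 led at 1.73 ± 0.20. Fos, Fosb and Atf3 passed at both ages with opposite signs, 9 further members passed at P1 alone and 8 at P5 alone. The P1 count fell to 4 without P1 Tail 6, 6 without P1 Back 5 and 5 without P1 Back 6. The share of all genes called was then 2.2%, 2.59% and 2.12%, against 3.97% with all arrays. The P5 count was 7 without P5 Tail 3, 19 without P5 Tail 4, and 4, 6 and 7 without P5 Back 1, 2 and 3. Without both P5 Tail arrays of widest spread (2 and 3), P5 Tail 4 is left alone, with its spread taken from the other groups. The differences of the 11 members were then 0.68 to 1.02 times those with all arrays. Dusp6 stood at -0.56 on P5 Tail 4 and had a P5 Tail mean of -0.04 on all 3.

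From P1 to P5 in back skin, 21 of 38 members fell and 0 rose, while 2.03% of all genes fell and 2.22% rose. The members' median log2 difference was -0.90, against 0.01 for all genes, and the called falls ran from -0.50 (Gadd45g) to -2.86 (Atf3). In tail skin over the same days 2 members rose, Egr2 and Sgk1, and 0 fell, while 3.34% of all genes rose and 1.96% fell. The tail count was 4 without P5 Tail 4, with Ier3 and Junb added, while the share of all genes called went from 5.3% to 7.82%. A direct test of whether the difference between sites changed with age, (P5 Tail - P5 Back) - (P1 Tail - P1 Back), was positive and called for 19 members and negative for 0, against 1.93% and 0.94% of all genes, with a median of 0.97 against 0.02. That count was 11 without P1 Tail 6, 10 without P1 Back 5 or P1 Back 6, and 11 without P5 Back 1. The share of all genes called was then 1.5%, 1.5%, 1.31% and 1.74%, against 2.87% with all arrays. With P5 Tail 4 as the only P5 Tail array the 19 differences were 0.66 to 1.01 times those with all arrays. The P1 site comparison, the change in back skin and the interaction share the P1 Back arrays, and the counts in them are therefore not separate evidence. In all, 25 members passed in at least 1 of the 5 comparisons, 3 of them in 4 comparisons and 13 in 3. The share of all genes passing in at least 1 was not counted. This count and those by role below therefore have no background to set them against.

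**Figure D2:**
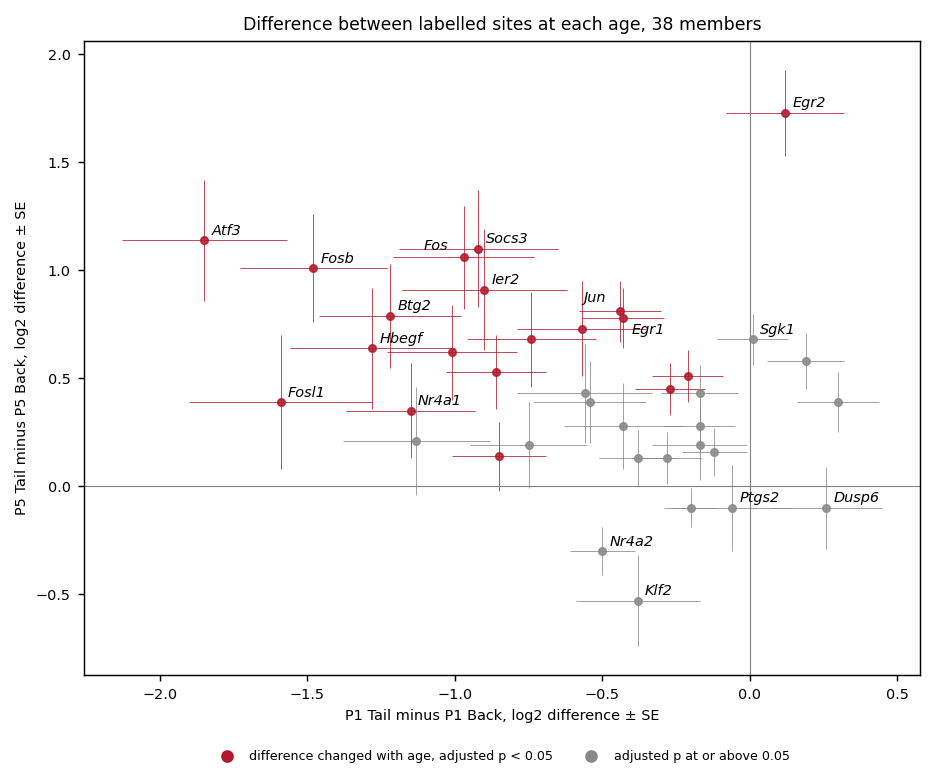
Log2 difference ± SE between labelled tail and back at P1 (horizontal axis) and at P5 (vertical axis) for the 38 members, red where the difference changed with age. Atf3, at -1.85 and 1.14, lies at the upper left, and Egr2, at 0.12 and 1.73, lies apart near the vertical axis.

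Counted by probe set, the directions were the same with 1 exception at P5. At P1 23 of the 71 member probe sets were lower in tail and 0 higher (2.72% of all 45037 probe sets called in either direction). At P5 14 were higher and 1 lower (4.76% of all). From P1 to P5, 36 fell and 0 rose in back (2.3% of all) and 3 rose and 0 fell in tail (3.12% of all), and 27 passed for the interaction, each with a positive sign (1.73% of all). The single probe set lower in tail at P5 belonged to Nr4a2.

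AP-1 is a dimer of a Fos and a Jun protein, or of either with an Atf partner, and 5 of the 9 members of this group passed in at least 1 comparison. Atf3 had log2 values of 1.63, 1.87 and 1.78 in P1 Back, -1.47, -0.89 and -0.94 in P5 Back, -0.19, 0.69 and -0.76 in P1 Tail, and -0.06, 0.12 and 0.06 in P5 Tail. The P1 Back arrays stood above and the P5 Back arrays below all 6 tail arrays. Atf3 fell by 2.86 ± 0.28 (SE) on the log2 scale in back skin, or 7.27-fold, with an adjusted p of 0.000199, and it was higher in P5 Tail than in P5 Back by 1.14 ± 0.28 (adjusted p = 0.025).

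Fosb, a close relative of Fos that likewise pairs with Jun proteins, had log2 values of 1.11, 1.24 and 1.19 in P1 Back, -1.20, -0.84 and -0.86 in P5 Back, 0.23, -0.03 and -1.08 in P1 Tail, and -0.06, 0.15 and 0.03 in P5 Tail. Its fall in back skin was -2.15 ± 0.25 (4.44-fold, adjusted p = 0.00051), and it differed between sites by -1.48 ± 0.25 at P1 (adjusted p = 0.00418) and 1.01 ± 0.25 at P5 (adjusted p = 0.0285). P1 Tail 6, at -1.08, reached the P5 Back range, and the other P1 Tail arrays did not.

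Fos itself was at 0.55, 0.65 and 0.82 in P1 Back, -1.28, -0.84 and -0.78 in P5 Back, 0.18, -0.16 and -0.91 in P1 Tail, and 0.16, 0.30 and -0.20 in P5 Tail. The back groups did not overlap each other or P5 Tail, and P1 Tail reached from near the P5 Tail values down to the P5 Back values. Fos fell by 1.64 ± 0.24 in back skin (adjusted p = 0.00161), and its site difference was -0.97 ± 0.24 at P1 (adjusted p = 0.0368) and 1.06 ± 0.24 at P5 (adjusted p = 0.0161).

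Fosl1, a later-induced Fos relative linked to migrating and wound-edge cells, was at 1.35, 1.76 and 1.34 in P1 Back, -0.43, -0.34 and -0.45 in P5 Back, -0.68, 0.75 and -0.40 in P1 Tail and 0.36, 0.15 and -0.56 in P5 Tail. Its high values were in P1 Back, and the other 3 groups overlapped. The site difference at P1 was -1.59 ± 0.31 (adjusted p = 0.0111), the fall in back skin -1.89 ± 0.31 (adjusted p = 0.00393), and the P5 site difference 0.39 ± 0.31 did not pass.

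Jun, the main partner of Fos, showed its clearest separation at P5 Back, with -1.02, -0.76 and -0.71 there, 0.19, 0.40 and 0.37 in P1 Back, 0.01, 0.04 and -0.43 in P1 Tail, and 0.00, 0.09 and -0.16 in P5 Tail. The P5 Back arrays lay below all others. Jun fell by 1.15 ± 0.14 in back skin (2.22-fold, adjusted p = 0.000616) and was higher in tail at P5 by 0.81 ± 0.14 (adjusted p = 0.00388). Junb, Jund, Fosl2 and the small Maf protein gene Maff passed in 0 of the 5 comparisons. Junb showed the widest spread of these, from -0.36 to 0.93 within P5 Tail, and its P1 Back values of 0.33, 0.45 and 0.47 lay above the P1 Tail values of -0.17, -0.02 and -0.24 at an adjusted p of 0.281.

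**Figure D3:**
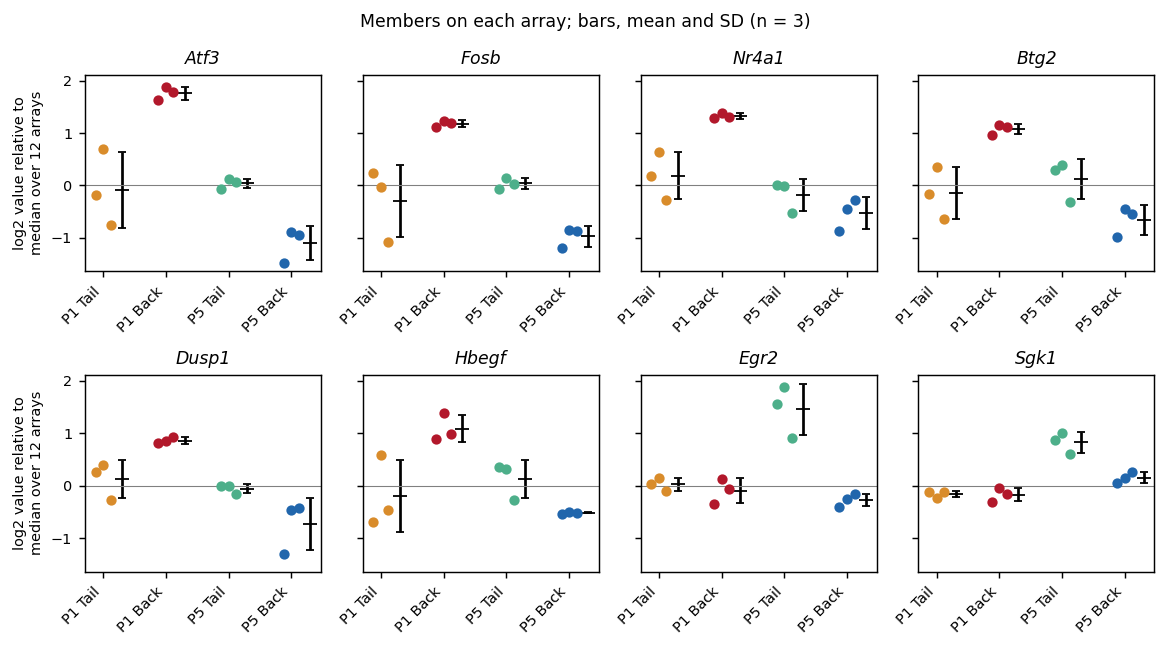
Log2 values of 8 members on every array by labelled group, with the mean and SD of the 3 arrays beside the points. Atf3, Fosb, Nr4a1, Btg2, Dusp1 and Hbegf have their highest arrays in P1 Back, while Egr2 and Sgk1 have theirs in P5 Tail.

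The zinc finger, nuclear receptor and Myc group held 11 members, of which 6 passed somewhere. The Nr4a genes encode orphan nuclear receptors that are induced by cyclic AMP and stress. Nr4a1 was at 1.28, 1.39 and 1.31 in P1 Back, 0.19, 0.63 and -0.27 in P1 Tail, 0.01, -0.01 and -0.53 in P5 Tail, with -0.87, -0.45 and -0.27 in P5 Back. The P1 Back arrays stood apart, and P5 Tail overlapped P5 Back. Nr4a1 was lower in tail at P1, with a difference of -1.15 ± 0.22 (adjusted p = 0.00918) and fell by 1.86 ± 0.22 in back skin (3.62-fold, adjusted p = 0.000527), and at P5 its site difference was 0.35 ± 0.22 and did not pass.

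Nr4a3 followed the same order with 1.10, 0.94 and 0.91 in P1 Back, -0.12, 0.77 and 0.05 in P1 Tail, -0.15, -0.11 and -0.12 in P5 Tail, with -0.63, -0.19 and -0.15 in P5 Back, and passed for the fall in back skin alone (-1.31 ± 0.20, adjusted p = 0.00214). Nr4a2 was measured by 6 probe sets that disagreed. At P1 3 of them were called lower in tail (-0.82, -0.65 and -0.64), and the others, at -0.67, -0.20 and -0.02, did not pass. Averaged, Nr4a2 was at 0.42, 0.35 and 0.28 in P1 Back, -0.19, -0.01 and -0.25 in P1 Tail, -0.15, -0.25 and -0.17 in P5 Tail, with -0.04, 0.11 and 0.25 in P5 Back. Its P1 site difference was -0.50 ± 0.11 (adjusted p = 0.0179). Unlike its relatives it was lower in both tail groups than in both back groups, with a P5 site difference of -0.30 that did not pass.

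Egr1, an early growth response zinc finger factor, separated P5 Back from the rest, at -0.84, -0.68 and -0.67 there, 0.07, 0.35 and 0.26 in P1 Back, 0.01, -0.11 and -0.52 in P1 Tail and 0.01, 0.15 and -0.01 in P5 Tail. It fell by 0.96 ± 0.14 in back skin (adjusted p = 0.00154), was higher in tail at P5 by 0.78 ± 0.14 (adjusted p = 0.0039), and its P1 site difference of -0.43 ± 0.14 did not pass. Klf6, a Krüppel-like factor, was at -0.68, -0.59 and -0.52 in P5 Back, 0.23, 0.47 and 0.34 in P1 Back, 0.28, 0.05 and -0.11 in P1 Tail and -0.24, 0.03 and -0.23 in P5 Tail. Klf6 fell by 0.94 ± 0.12 in back skin (adjusted p = 0.000932), with each of its 5 probe sets called. Its P5 site difference was 0.45 ± 0.12 (adjusted p = 0.0436), with 1 of the 5 probe sets called (0.87) and the others at 0.25 to 0.48, and this call was lost under 15 of 21 alternatives.

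Egr2, known from hindbrain and nerve myelination and also induced by growth factors, had an order of its own. Its log2 values were 1.57, 1.88 and 0.92 in P5 Tail, against 0.03, 0.15 and -0.10 in P1 Tail, -0.34, 0.13 and -0.07 on the P1 Back arrays and -0.40, -0.25 and -0.16 in P5 Back. The P5 Tail arrays lay above the other 9. The difference from P5 Back was 1.73 ± 0.20 (3.31-fold, adjusted p = 0.000238) and from P1 Tail 1.43 ± 0.20 (2.69-fold, adjusted p = 0.00136), and both of its probe sets passed in both comparisons. The site difference at P1 was 0.12 and the age difference in back skin -0.18, and neither passed. Schwann cell markers, whose cells use Egr2, had mean log2 values of 0.52, 0.04 and 0.05 over 5 genes in P5 Tail, with 0.23, 0.29 and 0.41 in P5 Back, and these groups overlapped. Some other markers shared the order of Egr2, and others of the same lists did not. The T cell receptor component gene Cd3g was at 1.68, 1.76 and 1.24 in P5 Tail, with every other array at or below 0.40, and 2 of 6 lymphocyte markers (Cd3g and Cd3d) were higher in P5 Tail than in P5 Back and than in P1 Tail. The epidermal stress keratin gene Krt6a was at 2.34, 1.91 and 1.17 in P5 Tail, with every other array at or below 0.26. Their part in the values of Egr2 was not tested. Egr3, Klf2, Klf4, Klf10 and Myc passed in 0 comparisons. Egr3 differed between its probe sets at P5, by 0.70 on one and 0.07 on the other. Klf2, a flow-responsive endothelial factor, was lowest in P5 Tail at -0.08, -0.79 and -0.69, and endothelial markers on the same arrays averaged 0.24, -0.35 and -0.11 over 10 genes.

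In the group of Ier and growth arrest genes 5 of 6 members passed. Btg2, an antiproliferative gene that p53 also induces, was at 0.96, 1.15 and 1.11 in P1 Back, -0.17, 0.36 and -0.63 in P1 Tail, 0.30, 0.40 and -0.31 in P5 Tail, with -0.99, -0.44 and -0.54 in P5 Back. No other array reached the P1 Back values. It fell by 1.73 ± 0.24 in back skin (3.32-fold, adjusted p = 0.00135) and differed between sites by -1.22 ± 0.24 at P1 (adjusted p = 0.0114). Gadd45b, which feeds the stress kinases p38 and JNK, was at 0.78, 0.86 and 0.78 in P1 Back and between -0.34 and 0.29 on the 9 other arrays (-0.03, 0.21 and -0.30 in P1 Tail, 0.29, 0.05 and -0.34 in P5 Tail, -0.21, -0.04 and -0.19 in P5 Back). Gadd45b was lower in tail at P1, with a difference of -0.85 ± 0.16 (adjusted p = 0.00803) and fell by 0.95 ± 0.16 in back skin (adjusted p = 0.00407), whereas its relative Gadd45g, at -0.44, -0.24 and -0.47 in P5 Back, 0.09, 0.03 and 0.22 in P1 Back, 0.00, -0.01 and -0.27 in P1 Tail and 0.33, 0.00 and 0.04 in P5 Tail, passed at P5 instead (0.51 ± 0.12, adjusted p = 0.0247) and had a fall of -0.50 ± 0.12 in back skin (adjusted p = 0.0387).

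Ier2, a nuclear protein of unsettled function, had log2 values of 0.60, 0.62 and 0.68 in P1 Back, 0.05, -0.05 and -0.81 in P1 Tail, 0.93, 0.23 and -0.32 in P5 Tail, with -0.70, -0.39 and -0.78 in P5 Back. P5 Tail 2 was the highest array of all and the P5 Tail range was wide. Ier2 fell by 1.26 ± 0.28 in back skin (adjusted p = 0.0205), and the interaction was 1.81 ± 0.39 (adjusted p = 0.0256). Ier3, a survival gene under NF-κB control, was at 0.70, 0.85 and 0.62 in P1 Back, -0.15, -0.03 and -0.70 in P1 Tail, 0.81, 0.57 and -0.02 in P5 Tail, with -0.48, 0.02 and -0.03 in P5 Back. It was lower in tail at P1, with a difference of -1.01 ± 0.22 (adjusted p = 0.0203) and fell by 0.89 ± 0.22 in back skin (adjusted p = 0.0405). From P1 to P5 in tail its difference was 0.74 ± 0.22, which did not pass. Ier5 passed in 0 comparisons, and its 3 probe sets differed at P1 (-0.58, -0.01 and 0.07).

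Among the 8 feedback inhibitors 6 passed. Dusp1, a nuclear phosphatase that switches off p38 and JNK, was at 0.81, 0.85 and 0.93 in P1 Back, 0.26, 0.40 and -0.28 in P1 Tail, 0.00, 0.00 and -0.16 in P5 Tail, with -1.30, -0.47 and -0.43 in P5 Back. The P1 Back arrays lay above and the P5 Back arrays below all tail arrays, with P5 Back 1 far under its group. Dusp1 fell by 1.60 ± 0.22 in back skin (3.02-fold, adjusted p = 0.00115). Dusp5, which acts on nuclear ERK, was at 0.66, 1.11 and 1.00 in P1 Back, -0.57, 0.50 and -0.55 in P1 Tail, 0.21, -0.03 and -0.20 in P5 Tail, with -0.40, 0.03 and -0.29 in P5 Back. It had a P1 site difference of -1.13 ± 0.25 (adjusted p = 0.021) and a fall in back skin of -1.14 ± 0.25 (adjusted p = 0.0194). Dusp6, the cytoplasmic ERK phosphatase, and Dusp2 passed in 0 comparisons, and their largest differences between groups were 0.29 and 0.31.

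Nfkbia, which encodes the NF-κB inhibitor IκBα, was at 0.61, 0.80 and 0.74 in P1 Back, -0.27, 0.23 and -0.41 in P1 Tail, 0.24, 0.26 and -0.15 in P5 Tail, with -0.56, -0.46 and -0.22 in P5 Back. Its 5 probe sets ran together, at -0.75 to -1.01 between sites at P1, and the gene differed by -0.86 ± 0.17 there (adjusted p = 0.0105) and by -1.13 ± 0.17 between ages in back skin (adjusted p = 0.00201). Nfkbiz, a nuclear IκB protein, was at 0.46, 0.62 and 0.50 in P1 Back, 0.22, 0.12 and -0.47 in P1 Tail, -0.12, 0.75 and -0.05 in P5 Tail, with -0.59, -0.53 and -0.48 in P5 Back. It fell by 1.06 ± 0.22 in back skin (adjusted p = 0.0141).

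Zfp36, which destabilises the messenger RNAs of cytokines and of immediate early genes, was at 0.45, 0.52 and 0.49 in P1 Back, 0.11, 0.01 and -0.29 in P1 Tail, -0.01, 0.16 and -0.26 in P5 Tail, with -0.95, -0.19 and -0.14 in P5 Back, where P5 Back 1 stood apart. It passed for the fall in back skin alone (-0.91 ± 0.19, adjusted p = 0.0169). Socs3, the inhibitor of cytokine signalling through STAT3, was low in 2 groups, at -0.04, -0.80 and -1.09 in P1 Tail and -1.23, -0.89 and -0.32 in P5 Back, and higher in the others, at 0.22, 0.23 and 0.39 in P1 Back and 0.69, 0.15 and 0.04 in P5 Tail. It was higher in tail at P5 by 1.10 ± 0.27 (adjusted p = 0.0269), fell by 1.09 ± 0.27 in back skin (adjusted p = 0.0409) and had an interaction of 2.02 ± 0.38 (adjusted p = 0.0133). Its calls rested on a pair of probe sets with the suffix x, which can match related transcripts, and all 3 were lost without them. The remaining probe set gave 0.90 at P5, -0.65 in back skin and 1.52 for the interaction.

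The effectors did not move as 1 group, and 3 of the 4 passed somewhere. Hbegf, a ligand of the epidermal growth factor receptor, was at 0.89, 1.38 and 0.99 in P1 Back, -0.70, 0.58 and -0.46 in P1 Tail, 0.35, 0.32 and -0.28 in P5 Tail, with -0.53, -0.50 and -0.51 in P5 Back. It was lower in tail at P1, with a difference of -1.28 ± 0.28 (adjusted p = 0.0193) and fell by 1.60 ± 0.28 in back skin (3.04-fold, adjusted p = 0.00502). Rhob, an induced small GTPase, was at -0.01, 0.00 and 0.02 in P1 Back, 0.43, 0.00 and 0.15 in P1 Tail and 0.24, 0.17 and 0.00 in P5 Tail, with -0.67, -0.38 and -0.28 in P5 Back. The P5 Back arrays lay below all others. It was higher in tail at P5 by 0.58 ± 0.13 (adjusted p = 0.0185).

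Sgk1, a kinase induced by serum, glucocorticoids and osmotic stress, resembled Egr2 in that its high arrays were P5 Tail, at 0.88, 1.00 and 0.61, against -0.12, -0.23 and -0.12 in P1 Tail, -0.30, -0.05 and -0.15 on the P1 Back arrays and 0.05, 0.14 and 0.26 in P5 Back. It was 0.68 ± 0.12 above P5 Back (adjusted p = 0.00361) and 0.99 ± 0.12 above P1 Tail (adjusted p = 0.000497). Ptgs2, the inducible cyclooxygenase, passed in 0 comparisons. Its highest array was P1 Tail 5 at 0.95, and the values at P1 (0.13, 0.95 and 0.02 in tail, 0.56, 0.49 and 0.24 in back) lay above those at P5 (-0.36, -0.36 and -0.26 in tail, -0.40, -0.25 and -0.02 in back), with adjusted p of 0.0707 in tail and 0.108 in back.

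A wider list of 59 further immediate early and stress-induced genes, of which 56 were measured, moved the same way as the members where it was called at P1 and in back skin. At P1 10 were lower in tail and 0 higher, with a median log2 difference of -0.30, and from P1 to P5 in back skin 18 fell and 0 rose, with a median of -0.34. F3, the tissue factor that starts coagulation, was at 1.19, 1.82 and 1.77 in P1 Back, -0.95, -0.69 and -0.31 in P5 Back, -0.93, 0.64 and -0.11 in P1 Tail and 0.37, 0.11 and -0.20 in P5 Tail. Ccn1, a matricellular protein induced through serum response factor and YAP, was at 1.41, 1.51 and 1.62 in P1 Back and -0.90, -0.67 and -0.35 in P5 Back and fell by 2.15 ± 0.18 (adjusted p = 8e-05). Arc fell by 1.90 ± 0.27 in back skin (adjusted p = 0.00157) and the NF-κB inhibitor gene Tnfaip3 by 1.21 ± 0.15 (adjusted p = 0.00084). The cytokine genes Il6, Cxcl1 and Cxcl2 fell in back skin too, and Cxcl1 (-1.59 ± 0.31) and Cxcl2 (-1.03 ± 0.23) also fell in tail, where the Fos and Jun genes were not called.

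At P5 the wider list was divided between sites, with 4 higher in tail (Cebpb, Phlda1, Dusp4 and Gem), 2 lower (Bhlhe40 and Vegfa) and a median of 0.09. In tail from P1 to P5 1 rose (Cebpb) and 4 fell (Ccn1, Cxcl1, Cxcl2 and Vegfa), and 6 were called for the interaction, all positive. The upstream relay of MAP kinases, serum response factor partners and CREB kinases, 19 of 27 genes measured, was called for 0 genes at P1 (2 at an unadjusted p under 0.05), 0 in back skin (3) and 0 for the interaction (5) by limma. Mapkapk2, the kinase under p38, was higher in P5 Tail than in P5 Back (0.76 ± 0.16, adjusted p = 0.0133) and than in P1 Tail (0.69 ± 0.16, adjusted p = 0.028), and Rps6ka5 fell in tail by 0.72 ± 0.14 (adjusted p = 0.00934). Among 14 of 15 heat shock chaperone genes, Dnajb1 was lower in tail at P1 (-0.88 ± 0.20, adjusted p = 0.0231) and fell in back skin (-1.26 ± 0.20, adjusted p = 0.0026), as did Hspa1a in back skin (-1.56 ± 0.40, adjusted p = 0.0471), which shares near-identical sequence with Hspa1b and is uncertain for that reason. Hspb8 rose in back skin (0.57 ± 0.13, adjusted p = 0.0309). The list medians for chaperones were 0.08 at P1, 0.11 at P5 and -0.06 in back skin.

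**Figure D4:**
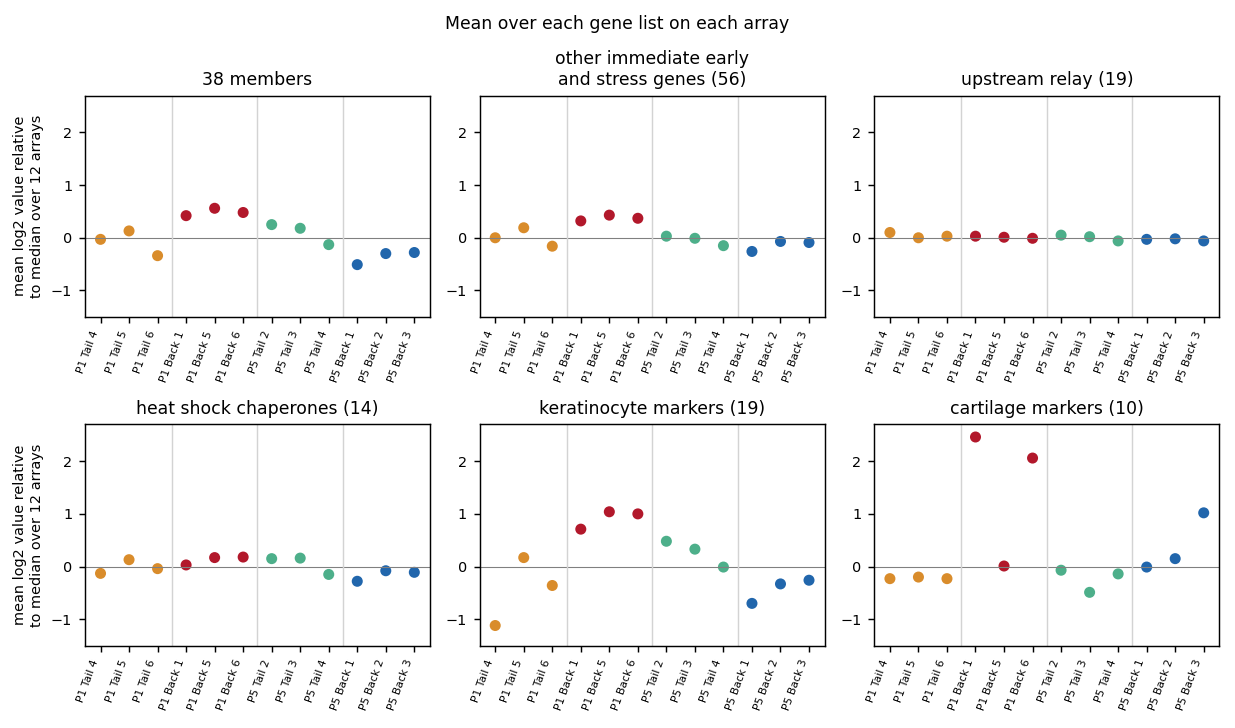
Mean log2 value over each of 6 gene lists (number of genes in brackets) on the 12 arrays, coloured by labelled group. The means of the members, the wider list and the keratinocyte markers are highest in P1 Back, where Krt2, Krt16 and Sprr1b are by far the highest keratinocyte genes. The upstream relay lies within -0.06 to 0.10 on every array, and the cartilage markers are high on P1 Back 1, P1 Back 6 and P5 Back 3.

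Called keratinocyte markers ran in the direction of the called members, except Krt2 at P5, whereas several other lists of cell markers did not. Over 19 keratinocyte markers the mean log2 value was 0.71, 1.04 and 1.00 in P1 Back, -0.70, -0.33 and -0.26 in P5 Back, -1.12, 0.17 and -0.36 in P1 Tail and 0.48, 0.33 and -0.01 in P5 Tail. The mean was highest in P1 Back, as for the members, but not every gene was. By far the highest P1 Back values were those of Krt2 (5.32, 5.66 and 5.64), Krt16 (3.88, 4.17 and 4.17) and Sprr1b (2.77, 3.32 and 3.24). At P1 4 of 19 were lower in tail and 0 higher (Krt5, Krt2, Krt16 and Sprr1b, median -0.60), at P5 7 were higher and 1, Krt2, lower (median 0.77), in back skin 10 fell and 0 rose (median -0.68), in tail 6 rose and 0 fell (median 0.56), and 8 were called for the interaction, all positive. Krt14, of basal keratinocytes, was at 0.07, 0.32 and 0.32 in P1 Back and -1.01, -0.46 and -0.49 in P5 Back. In P5 Tail it was at 0.32, 0.52 and 0.52, as high as in P1 Back or higher. Krt15 and Krt17 were likewise higher in P5 Tail than in P1 Back, whereas Krt1 and Krt10 had their highest arrays in P1 Back. Krt16, induced in stressed epidermis, fell by 4.65 ± 0.35 in back skin. In tail, where 6 keratinocyte markers rose, 2 members were called. The part of the epidermal transcripts in the members' differences was not tested.

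Within P1 Tail the keratinocyte and member lists differed in their lowest array. P1 Tail 4 had the lowest keratinocyte mean of all arrays, -1.12, with a member mean of -0.03. Its lowest keratinocyte genes were Sprr1b (-4.11), Lor (-3.27), Krt2 (-2.50) and Krt1 (-2.09). P1 Tail 6, at -0.36 for keratinocyte markers, had the lowest member mean of its group, -0.34. These are single arrays, and their bearing on the part of epidermal transcripts was not tested. Without P1 Tail 4 there were 10 members lower at P1, Fos, Fosb, Atf3 and Nr4a1 among them, with 2.84% of all genes called. Cartilage markers were high on P1 Back 1 and P1 Back 6 (means of 2.46 and 2.06 over 10 genes) and low on P1 Back 5 (0.01). The member means on these arrays were 0.42, 0.48 and 0.56. The part of cartilage transcripts in the members' values was not tested. With both P1 Back 1 and 6 left out, 1 array is left in that group, with its spread taken from the others. The differences of the 12 members called at P1 were then 0.98 to 1.23 times their values with all arrays, with Atf3 at -1.96 and Fosb at -1.54. For the 21 members called in back skin the ratio was 0.84 to 1.18, and for the 19 of the interaction 0.89 to 1.17. Melanocyte markers (6 of 6) were higher in tail at P1, and mast cell markers were lower in tail at P1 (4 of 8) and at P5 (6 of 8). In back skin between ages 3 of 6 melanocyte and 5 of 8 adipocyte markers rose and 0 fell. In tail 6 of 8 adipocyte markers fell and 0 rose. For the interaction 7 of 8 adipocyte markers were negative and 0 positive (median -2.1), and 2 of 6 melanocyte markers were negative. Of 10 myeloid markers, 4 fell in tail and 0 rose. Neutrophil and endothelial markers were called for 0 genes by limma in the 5 comparisons, with at most 2 of 8 and 4 of 10 at an unadjusted p under 0.05. Fibroblast markers had array means between -0.18 and 0.18 over 11 genes, with 2 higher and 0 lower in tail at P1, 3 higher and 1 lower at P5, 0 higher and 2 lower at P5 than at P1 in back skin (Fbln1 at -0.44 and Twist2 at -0.87), and 0 called in tail between ages or for the interaction (2 in each at an unadjusted p under 0.05).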

How the data were processed

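The deposited log2 values came from 12 one-colour Affymetrix MG430.2A arrays that the authors normalised by RMA in GeneSpring, and that have the median of the 12 arrays taken off for every probe set. Base 2 was taken from the use of RMA. The authors left out the lowest 20% of genes, a filter that centred values do not allow, so all 45037 probe sets that are not controls were kept. Values of the 34945 probe sets with 1 symbol in the platform annotation were averaged into 18193 genes, all symbols being current in RefSeq for the 34741 matched by identifier. The 12 arrays were fitted in 4 groups with limma 3.58.1 in R 4.3.3, giving 5 comparisons with Benjamini-Hochberg adjustment over all genes (or all probe sets) at 0.05. The procedure was tested on simulated data. The members, the other lists and the rule for named genes (members that passed, with the rest by range) were chosen with earlier results of these data known. Alternatives were median centring, a trended and robust fit, array weights, a replicate block, only the groups compared, each array left out, other summaries of probe sets, an unpaired t-test and a 2-fold limit. Leaving out pairs of arrays was added after seeing the data. Precision is limited by having 3 arrays in a group, and p-values cover the spread between arrays.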

Additional observations from a re-analysis of the deposited data

Results flagged for a closer look

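The difference between labelled tail and labelled back changed between P1 and P5 for 19 of the 38 members by a test of the change itself (limma interaction, adjusted p under 0.05). For AP-1 genes the change on the log2 scale was 2.99 for Atf3, 2.49 for Fosb, 2.03 for Fos, 1.98 for Fosl1 and 1.25 for Jun. For the zinc finger and nuclear receptor factors it was 1.61 for Egr2, 1.5 for Nr4a1, 1.22 for Egr1 and 0.72 for Klf6. Among the Ier and growth arrest genes it was 2.01 for Btg2, 1.81 for Ier2, 1.63 for Ier3, 0.99 for Gadd45b and 0.71 for Gadd45g, and among the inhibitors and effectors 2.02 for Socs3, 1.42 for Dusp1, 1.39 for Nfkbia, 1.30 for Nfkbiz and 1.92 for Hbegf. Each of the 19 was positive, and 1.93% of all genes were called in that direction. Keratinocyte markers were called in the same test for 8 of 19 genes, all positive, and their part in the members' change was not tested. Groups of 3 arrays are too small for a search for single outlying arrays.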

How the results depend on the processing

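Between labelled sites 12 members were called at P1 and 11 at P5, 21 in back skin and 2 in tail between ages, and 19 for the interaction. With each array left out in turn these counts ranged from 4 to 15 at P1, 4 to 19 at P5, 14 to 22 in back, 2 to 4 in tail and 10 to 22 for the interaction. Array weights gave 29 at P1 and 4 at P5, while the calls over all genes went from 722 to 3650 and from 1257 to 662. An unpaired t-test is the study's general test, and was not stated for its arrays. It estimates each gene's spread from 2 groups of 3. After Benjamini-Hochberg adjustment it gave 0 members in each of the 4 comparisons of 2 groups. At an unadjusted p under 0.05 it gave 19 at P1, 16 at P5, 31 in back and 4 in tail of the 38 members. The shares of all genes were 20.1%, 12.6%, 19.8% and 10.1%. At least 2-fold with no test gave 8 at P1, 5 at P5, 15 in back, 1 in tail and 17 for the interaction. The shares of all genes were 1.88%, 2.38%, 2.16%, 1.92% and 3.37%. Without both P1 Back 1 and 6, the called differences were 0.98 to 1.23 times their full values at P1, 0.84 to 1.18 in back and 0.89 to 1.17 for the interaction. Without both P5 Tail 2 and 3 they were 0.68 to 1.02 times at P5, 0.63 to 0.78 in tail and 0.66 to 1.01 for the interaction. Each of these fits leaves 1 array in its group, which is assumed to vary like the others, so counts of calls are not given. The labels do not say whether same-numbered arrays of both sites came from 1 mouse. Their deviations from the group means correlated over genes at 0.26 and -0.01 at P1 and 0.17 and -0.02 at P5. With 3 arrays in a group these values cannot settle whether the arrays were paired. With the replicate block there were 14 at P1, 6 at P5, 17 in back, 3 in tail and 19 for the interaction. The shares of all genes were then 3.16%, 5.54%, 1.57%, 2.07% and 3.79%. Over the 65 member differences called, 0 of 1346 recomputed values changed sign and 310 no longer passed. Each of 6 calls was lost under most of its alternatives: Klf6 at P5, Gadd45g in back, and Fosl1, Klf6, Gadd45b and Gadd45g for the interaction. Signal over background could not be assessed because levels were removed by centring.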
